A study of Homo sapiens and synthetic construct with 19 samples.

Results

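The guides CD33 sgRNA 1 and CD33 sgRNA 2 were compared with each other by RNA-seq. The erythroleukemia line TF-1, which grows on GM-CSF and expresses dCas9-ZIM3, carried either CD33 sgRNA 2 or CD33 sgRNA 1 in 4 libraries each. These are 8 of the 19 samples of the series, and none of the scrambled control libraries entered the comparison. On either side, 2 libraries carried the guide truncated to 15 nt and 2 carried it at its full 20 nt. In all groups the guide was delivered by lentivirus and the cells were selected with G418 for one week. At 2 weeks they were sorted on dCas9-ZIM3 and guide expression, per the study's methods, and harvested. The sample labels and the study's methods name dCas9-ZIM3 for these cells, whereas the design text of the series names CRISPRgate. No label ties a library to a separate culture or clone, so p-values measure only the spread between libraries. Each guide came with its own transduced cells, and the guide and the cells that carry it cannot be told apart.

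dCas9-ZIM3 joins a Cas9 that cannot cut to the KRAB domain of the zinc finger protein ZIM3, which recruits silencing chromatin and lowers transcription near the start site where the guide binds. The guides are aimed at the same gene, and the comparison asks how far the transcriptomes under them differ, in CD33 and in all other genes. Of the gene lists with at least 10 tested members, the ATF4 program had the largest median difference. ATF4 is a transcription factor whose translation increases when cells lack amino acids or carry stressed or unfolded proteins, and it turns on genes for amino acid synthesis, import and tRNA charging.

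The genomic sites of both guides are shown first because the guide is the only labelled difference between the sides. Capitals mark the 15 bases that the truncated guide pairs with, the 5 lower case bases before them belong to the full-length guide, and the last 3 are the NGG motif (PAM) that Cas9 needs. The sequence is that of hg38, read on the strand that matches the guide. Both sites lie in coding exons of CD33 in GENCODE v44. The site of sgRNA 1 is at chr19:51225134-51225156 on the plus strand, and that of sgRNA 2 at chr19:51225934-51225956 on the minus strand. They lie at 22 bp (sgRNA 1) and -29 bp (sgRNA 2, upstream) from the nearest annotated start of CD33. That start is a different, more downstream one for sgRNA 2, and the part of this position in the CD33 result was not tested.
CD33 site of sgRNA 1: ctgctGCCCCTGCTGTGGGCagg
CD33 site of sgRNA 2: gtcctGGGGCCCAGGGAGGTggg

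CD33 itself was lower with sgRNA 1. The normalised read count was 217, 205, 302 and 307 in the sgRNA 1 libraries, the first 2 at 15 nt and the last 2 at 20 nt, and 485, 484, 420.5 and 426 in the sgRNA 2 libraries in the same order. The groups did not overlap, and the log2 fold change (LFC) of sgRNA 2 over sgRNA 1 was 0.84 ± 0.071 (SE, adjusted p = 1.52e-07, limma on log2(value + 1)). With the 15-nt guides the LFC was 1.20 and with the 20-nt guides 0.47, and the interaction of guide and length had an adjusted p of 0.0583. The scrambled control libraries, which were not in the fit, held 516 and 445, beside the values with sgRNA 2. Reads named ZIM3 may come from the ZIM3 gene or from the KRAB domain of the transgene, which the counts cannot separate. Their normalised count was 99.9, 136, 100.3 and 64.3 with sgRNA 1 and 249, 194, 248 and 208 with sgRNA 2, an LFC of 1.20 ± 0.15 (adjusted p = 5.86e-06), against 3197 and 2882 in the control libraries. The part of this difference in the results below was not tested.

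Over the whole transcriptome the guides differed in many genes by small amounts. Of 16309 genes tested, 9669 (59.3%) passed an adjusted p of 0.05, of which 4857 (29.8% of the genes tested) were lower and 4812 (29.5%) higher with sgRNA 2. The median LFC of all genes tested was 0.0048, and 5 and 95% of genes lay below -0.97 and 0.88, respectively. An LFC of at least 1 in size was reached by 752 genes on the lower side (4.61%) and 574 on the higher side (3.52%). The 4 libraries of one guide all lay apart from the 4 of the other for 4038 genes that were lower (24.8%) and 3801 that were higher (23.3%). Library by library, the log2 values correlated at 0.961 to 0.969 between guides, and at 0.986 to 0.993 between the 15- and 20-nt forms of one guide (Pearson's r across genes, which are not independent). The libraries held 16460344 to 19616765 reads. Medians were close to 0 in all bins of transcript length (-0.024 to 0.024) and of GC content (-0.057 to 0.058), and from -0.10 on chromosome 18 to 0.07 on chromosome 11. Counts of list members below are to be read against these shares.

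The ATF4 program was lower with sgRNA 2 than with sgRNA 1. Of 34 tested genes in a list of ATF4 amino acid response genes, 32 were lower with sgRNA 2 (against 29.8% of all genes), none was higher, and 2 (ALDH18A1 and ATF5) did not pass. The median LFC of the list was -1.73, 24 of the 34 were lower by an LFC of at least 1 in size, and for 32 the libraries of the guides did not overlap. The median was -1.69 between the 15-nt guides and -1.74 between the 20-nt guides. Among the members, 13 also stand in another list used here. Beside the control libraries, which were not in the fit and had larger normalised totals, the control mean lay below the means of both guides for 15 of the 34, between them for 9 and above both for 10.

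**Figure D1:**
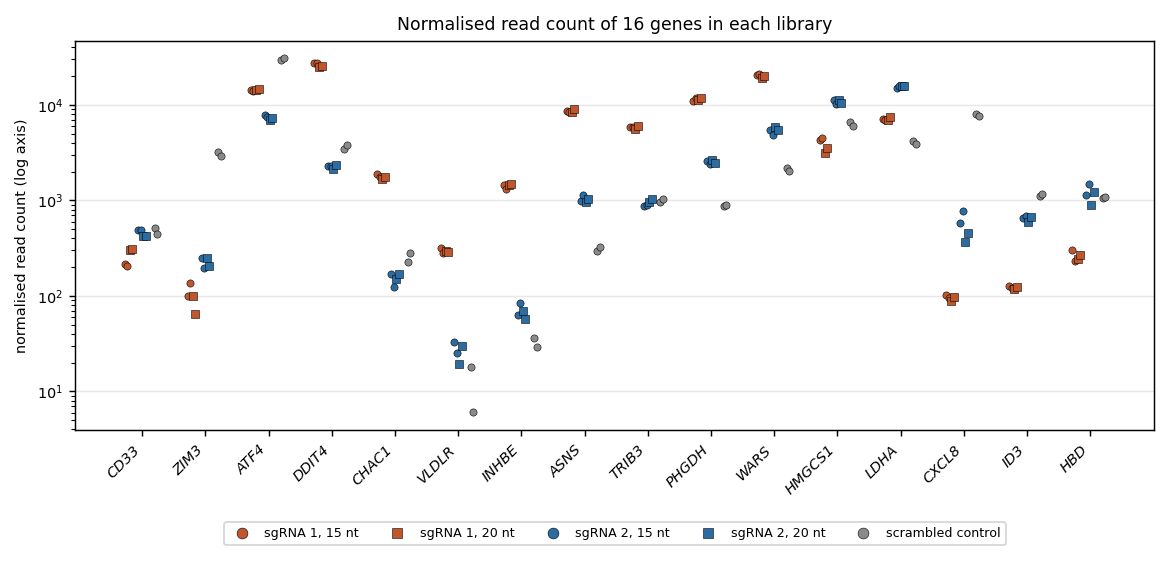
Normalised read count (log axis) of 16 genes in each library, circles for 15-nt guides and for the scrambled control, squares for 20-nt guides. The ATF4 program genes DDIT4 to WARS lie higher in all sgRNA 1 libraries, and HMGCS1, LDHA, CXCL8, ID3 and HBD lie higher in all sgRNA 2 libraries.

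DDIT4, an inhibitor of mTOR signaling, had the largest difference of the list. Its normalised count was 27244, 27094, 24693 and 25686 with sgRNA 1 and 2309, 2272, 2131 and 2322 with sgRNA 2, an LFC of -3.53 ± 0.06 (adjusted p = 4.81e-15), which is 11.6-fold. Every sgRNA 1 library was far above every sgRNA 2 library, and the control libraries held 3464 and 3754. DDIT4-AS1 on the opposite strand had the same LFC, -3.53, and whether counting used the strand is not given in the sources used here, so reads of the pair cannot be told apart. CHAC1, which degrades glutathione, stood at 1869, 1759, 1668 and 1738 against 171, 123, 150.5 and 170.4 (LFC -3.52). VLDLR, a lipoprotein receptor, stood at 315, 283, 297 and 289 against 33.2, 25.3, 19.5 and 29.6 (LFC -3.44), and its antisense partner VLDLR-AS1 moved with it (LFC -3.31). NUPR1, a stress-induced chromatin protein, was low in all libraries, at 72.3, 58.5, 83.9 and 71.3 against 7.86, 5.27, 4.43 and 6.96 (LFC -3.36). All 4 had libraries that did not overlap, and the adjusted p of the latter 3 was 4.38e-13, 7.52e-11 and 1.67e-08. INHBE, a TGF-beta family subunit outside the list, had one of the largest differences of all named genes, with 1441, 1318, 1431 and 1492 against 63.8, 83.3, 69.9 and 57.4 (LFC -4.36 ± 0.10, adjusted p = 5.28e-14).

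The transcription factors of the program were lower as well. ATF4 mRNA itself stood at 14448, 14061, 14239 and 14562 with sgRNA 1 and 7776, 7544, 6979 and 7271 with sgRNA 2 (LFC -0.96, adjusted p = 6.71e-09). The factor is controlled mainly at translation, which RNA-seq does not measure. DDIT3 (CHOP, LFC -2.04), CEBPB (-1.10) and CEBPG (-1.52), which pair with ATF4 on DNA, were lower too, while ATF5 had an LFC of 0.14 (adjusted p = 0.0844). TRIB3, an inhibitor of ATF4 and of AKT, had an LFC of -2.61, with 5797, 5824, 5637 and 5967 against 878, 904, 972 and 1044. PPP1R15A, which ends the translation block that raises ATF4, differed least among the 32, with an LFC of -0.43.

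Genes that make amino acids were lower with sgRNA 2 by large factors. ASNS, which makes asparagine, stood at 8640.4, 8438, 8388 and 9002 with sgRNA 1 and at 991, 1129, 953 and 1034 with sgRNA 2 (LFC -3.07 ± 0.063, adjusted p = 2.26e-14), and at 294 and 327 in the control libraries. The 3 enzymes of serine synthesis had LFCs of -2.18 (PHGDH), -1.97 (PSAT1) and -1.94 (PSPH). PHGDH, the first of them, stood at 10927, 11847, 11132 and 11921 against 2558, 2429, 2619 and 2473. The cysteine-forming enzymes CBS and CTH had LFCs of -2.17 and -3.01. The mitochondrial one-carbon enzymes MTHFD2 (-1.38), SHMT2 (-1.35) and MTHFD1L (-1.004) were lower, whereas the cytosolic SHMT1 (0.36) and thymidylate synthase TYMS (0.66) were higher. In the list of polyamine, serine and one-carbon genes, 8 of 15 were lower and 6 higher with sgRNA 2, and the higher ones also held the polyamine enzymes ODC1 (0.39), SRM, SMS and AMD1.

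Amino acid transporters followed, with smaller differences. The glycine transporter SLC6A9 had an LFC of -2.51, the cystine transporter SLC7A11 -2.16, and the neutral amino acid transporter SLC1A4 -1.45. The abundant transporters SLC3A2 (-0.94), SLC7A5 (-0.90), SLC1A5 (-0.78), SLC38A2 (-0.72) and SLC7A1 (-0.65) were lower by less than 1. Among aminoacyl-tRNA synthetases, which charge tRNAs, 14 of 20 tested were lower and 3 higher with sgRNA 2, with a median LFC of -0.68. WARS (tryptophan) stood at 20554, 21144, 19227 and 19822 against 5463, 4784, 5794 and 5497 (LFC -1.91, adjusted p = 8.13e-12). VARS had an LFC of -1.39 that did not pass (adjusted p = 0.362). AARS (-1.47), SARS (-1.34), GARS (-1.31) and MARS (-1.24) were lower by more than 1. FARSA (0.44), HARS (0.29) and RARS (0.32) were the 3 that were higher. CARS passed at -1.66 with libraries that overlapped, 550.4, 182, 224 and 212 against 192, 63.2, 99.1 and 38.3.

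The promoters of these genes were searched for the CARE element, the joined C/EBP and ATF element that ATF4 binds, written as TGATGNAA and read on both strands. The windows are those of RefSeq (GRCh38.p14), from 250 bases before to 50 after each start, and 10789 of the 16309 tested genes had one. The letters were found in 1.79% of all these windows, in 4 of 27 (14.8%) of the ATF4 list and in 5 of 12 (41.7%) of the synthetases that had a window. Among the genes lower by an LFC of at least 1 in size, 24 of 434 (5.53%) held it, and among those higher by as much, 8 of 362 (2.21%). A match is a stretch of letters and not a measured site, and DDIT4, VLDLR and TRIB3 held none in this window. The 250 bases before the start of 2 genes of the ATF4 list and of 2 synthetases are given because the letters lie there, with the match in capitals (TTGCATCA is the same element on the other strand). Their positions are chr15:40953221-40953470 (CHAC1, plus strand), chr7:97872409-97872658 (ASNS, minus), chr16:70289507-70289756 (AARS, minus) and chr9:92293698-92293947 (IARS, minus).
CHAC1, 250 bases before the start: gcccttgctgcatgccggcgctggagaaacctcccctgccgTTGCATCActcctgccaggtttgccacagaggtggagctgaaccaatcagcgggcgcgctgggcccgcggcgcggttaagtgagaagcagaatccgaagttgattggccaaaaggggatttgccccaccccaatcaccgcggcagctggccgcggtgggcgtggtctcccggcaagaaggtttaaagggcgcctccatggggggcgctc
ASNS, 250 bases before the start: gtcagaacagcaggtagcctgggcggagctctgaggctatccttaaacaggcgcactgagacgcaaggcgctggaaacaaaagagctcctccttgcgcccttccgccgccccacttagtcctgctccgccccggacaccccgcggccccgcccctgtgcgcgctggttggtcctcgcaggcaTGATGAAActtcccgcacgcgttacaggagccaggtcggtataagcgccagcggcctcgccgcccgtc
AARS, 250 bases before the start: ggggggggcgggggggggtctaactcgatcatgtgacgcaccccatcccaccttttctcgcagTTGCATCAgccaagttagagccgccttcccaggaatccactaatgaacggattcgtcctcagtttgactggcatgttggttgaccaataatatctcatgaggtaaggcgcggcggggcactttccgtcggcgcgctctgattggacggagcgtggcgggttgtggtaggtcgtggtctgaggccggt
IARS, 250 bases before the start: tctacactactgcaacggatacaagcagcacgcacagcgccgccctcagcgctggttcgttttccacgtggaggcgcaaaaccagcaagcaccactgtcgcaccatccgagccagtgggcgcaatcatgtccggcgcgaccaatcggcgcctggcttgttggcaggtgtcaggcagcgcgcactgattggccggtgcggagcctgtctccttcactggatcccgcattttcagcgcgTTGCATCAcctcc

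Heat shock elements (GAANNTTC, which reads the same on both strands) were found in 5 of 17 windows (29.4%) of heat shock and chaperone genes, against 4.61% of all windows. The 5 were those of HSPA6 (LFC -2.11), HSPB1 (0.31), DNAJA1 (0.73), CHORDC1 (0.92) and HSPA8 (0.95). The sterol element TCACNCCAC was found in 1 of 22 windows (4.55%) of cholesterol genes, against 1.1%. That window was of SREBF2, which was lower with sgRNA 2 (LFC -0.43). CCAAT was found in 18 of 21 windows (85.7%) of endoplasmic reticulum chaperone and unfolded protein response genes, against 36.7%. Among genes lower by an LFC of at least 1 in size, the shares were 6.68% (heat shock), 0.922% (sterol) and 36.4% (CCAAT). Among those higher by as much they were 4.42%, 1.38% and 40.6%, in the same order.

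Other lists of growth and stress regulators differed in both directions, and they share SESN2, EIF4EBP1, DDIT4 and VEGFA with the ATF4 list. TXNIP, which limits glucose uptake, stood at 8662, 8969.5, 9689 and 10017 with sgRNA 1 and 1053, 1046, 1124 and 984 with sgRNA 2 (LFC -3.15, adjusted p = 1.28e-14), and at 9097 and 8669.8 in the control libraries. SESN2, which reports leucine shortage to mTOR, had an LFC of -2.09, and the translation inhibitor EIF4EBP1 one of -1.03. In the list of mTOR and PI3K regulation 12 of 25 were lower and 4 higher, among them MTOR itself (0.31). VEGFA, the endothelial growth factor, stood at 7140, 7225, 8305 and 7577 against 1321, 1188, 1281 and 1184 (LFC -2.60). Among p53 targets 11 of 22 were lower and 4 higher. BBC3 (PUMA, LFC -1.44) and PMAIP1 (NOXA, -0.97), which promote apoptosis, were lower, and the cell cycle inhibitor CDKN1A was higher, at 44.6, 35.1, 51.97 and 57.4 against 123, 138, 146 and 167 (LFC 1.60). CDKN1A stood at 7699 and 8006 in the control libraries, above both guides. WIPI1, an autophagy protein, had an LFC of -2.32.

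Of 21 endoplasmic reticulum chaperone and unfolded protein response genes, 12 were lower and 4 higher with sgRNA 2 (median -0.33). The lower ones held the sensors ERN1 (-1.17) and ATF6 (-0.94) and the degradation factors HERPUD1 (-1.41) and SEL1L (-1.15). HSPA5 (BiP), the chief chaperone of the compartment, was lower by little, with an LFC of -0.22, and SDF2L1 was higher (1.24). Genes of the heat shock and cytosolic chaperone list went the other way, with 14 of 18 higher, 2 lower and a median of 0.56. HSPE1 (1.25), HSPH1 (1.15), HSPA8 (0.95) and HSP90AA1 (0.93) were higher with sgRNA 2. The co-chaperone DNAJB4 was lower (-0.23), and so was HSPA6, the strictly inducible HSP70, at 145, 126, 179 and 187 against 38.4, 43.2, 25.7 and 37.4 (LFC -2.11), while the control libraries held 19391 and 21439.

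Interferon response and antigen presentation genes were mostly lower with sgRNA 2. Of 36 interferon response genes, 24 were lower, 3 higher and 9 did not pass, with a median LFC of -0.53. IFI44L stood at 333, 293, 344 and 387 with sgRNA 1 and 75.98, 90.7, 107 and 112 with sgRNA 2 (LFC -1.81, adjusted p = 1.11e-09). OAS2 (-1.52), RSAD2 (-1.23) and the RNA sensor IFIH1 (-0.99) were lower, ISG15 had an LFC of -0.12 (adjusted p = 0.262), and GBP1 was higher (1.24). All 4 tested HLA class II list genes were lower. HLA-DQA1 had the largest difference of them (LFC -2.61), and CD74, the invariant chain, stood at 1211, 1234, 1254 and 1214 against 347, 320.5, 351 and 355 (LFC -1.84). The class II activator CIITA, at an LFC of -0.32, had libraries that overlapped. HLA class I genes had 8 of 11 lower, led by HLA-B at 71.4, 24.3, 20.1 and 22.8 against 12.2, 7.38, 7.97 and 11.3 (LFC -1.56). HLA genes are polymorphic and near copies of each other, so their counts are uncertain.

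Myeloid and cytokine receptor genes were also mostly lower. Of 13 tested myeloid granule and surface genes, 8 were lower and 1 higher (median -0.69). FCGR2A, an Fc receptor, stood at 2642, 2467, 2565 and 2505 against 609, 581, 551 and 498 (LFC -2.19), and the granule protease CTSG at 134, 104, 195 and 157 against 26.2, 28.5, 25.7 and 16.5 (-2.55). TF-1 cells depend on GM-CSF, which signals through JAK2 and STAT5, and in that list 15 of 24 were lower and 5 higher. IL5RA, the alpha chain of the IL-5 receptor, stood at 369, 369.7, 374 and 349 against 62.01, 60.1, 70.8 and 65.2 (LFC -2.49). The shared receptor chain CSF2RB (-0.68), JAK2 (-1.05), STAT5A (-0.65) and STAT5B (-0.97) were lower, as were the STAT5 targets PIM1 (-1.75), CISH (-1.27) and SOCS2 (-0.85). ID1 (0.88) was higher. In a bulk library, fewer cells of one type and less RNA per cell cannot be told apart.

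Inflammatory genes split. In the list of NF-kB targets, cytokines and chemokines, 12 of 25 were lower and 11 higher. The neutrophil chemokine CXCL8 stood at 102, 94.4, 88.4 and 97.99 with sgRNA 1 and 584, 776, 364 and 451 with sgRNA 2 (LFC 2.44, adjusted p = 1.21e-10), and CXCL1 (2.03), CXCL2 (1.88) and PTGS2 (1.67) were higher too. The control libraries held 8041 and 7673 for CXCL8, above all 8. TNFAIP3, which restrains NF-kB (-1.15), TNFSF10 (-1.06) and NFKB2 (-0.96) were lower. Immediate early genes, which follow growth factor signals, were higher in 14 of 23 and lower in 6. EGR1 stood at 1088, 1090.2, 595 and 495 against 2258, 1915, 1580.1 and 1510.5 (LFC 1.22, adjusted p = 3.96e-09), and ATF3, which ATF4 also controls, was lower (-1.53).

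Cholesterol synthesis was higher with sgRNA 2. Of 30 tested genes, 22 were higher and 4 lower, with a median LFC of 0.55. HMGCS1, an early enzyme of the pathway, stood at 4301, 4469, 3162 and 3550.5 with sgRNA 1 and 11126, 10176, 11207 and 10392 with sgRNA 2 (LFC 1.48, adjusted p = 1.21e-10). ACAT2 (1.46), DHCR7 (1.10) and NSDHL (1.01) were higher, and the regulators SREBF2 (-0.43) and SREBF1 (-0.29) were lower. In the hypoxia and glycolysis list 16 of 33 were higher and 6 lower. The lower ones held VEGFA, and the higher ones held glycolytic enzymes, among them LDHA (1.12), PKM (1.09), PGAM1 (0.93) and PGK1 (0.83). LDHA, which makes lactate, stood at 7176, 6991, 6884 and 7513 against 15005, 15574, 15774 and 15699 (adjusted p = 1.65e-09).

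Nuclear genes of oxidative phosphorylation were higher in 35 of 46 and lower in 3 (median 0.45). COX6A1, a subunit of cytochrome c oxidase, led them, followed by UQCRQ (1.05) and COX7B (1.02). COX6A1 also has a predicted site of sgRNA 1, given below. The 13 mitochondrially encoded genes of the file were at 0 in every library, the control libraries included. Counts of 0 for all 13 are not read as absence of their RNA, and their cause was not tested. The mitochondrially encoded part of oxidative phosphorylation is therefore not covered here.

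Genes of cell growth and division were higher by modest amounts. DNA replication and S-phase genes had 31 of 36 higher and 2 lower, with a median of 0.45. RRM2, which makes deoxynucleotides, stood at 1615, 1571, 1427 and 1394 with sgRNA 1 and 2951, 3059, 3219 and 3062 with sgRNA 2 (LFC 1.03, adjusted p = 1.21e-09), and the helicase subunit MCM4 had an LFC of 1.00. Mitosis genes were higher in 17 of 30 and lower in 4 (median 0.20), with BIRC5 at 0.69 and CCNB1 at 0.63. MYC and ribosome biogenesis genes were higher in 19 of 26 and lower in 2 (median 0.43), led by NOP2 (0.91) and POLR1A (0.88), although MYC itself was lower (-0.39). Of 77 cytosolic ribosomal protein genes, 22 were lower, 6 higher and 49 did not pass (median -0.13). Their median was 0.11 at 15 nt and -0.36 at 20 nt, so its sign turned with the length. RPS26 (1.33) was higher, and RPS10 (2.18), whose reads can be shared with pseudogenes and a read-through gene, is uncertain. In the list of CLK kinases and splicing regulators 12 of 25 were higher, 6 lower and 7 did not pass (median 0.14). The splicing factors SRSF2 (1.01), SRSF7 (0.97), SRSF3 (0.94) and SRSF1 (0.93) were the highest of them.

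**Figure D2:**
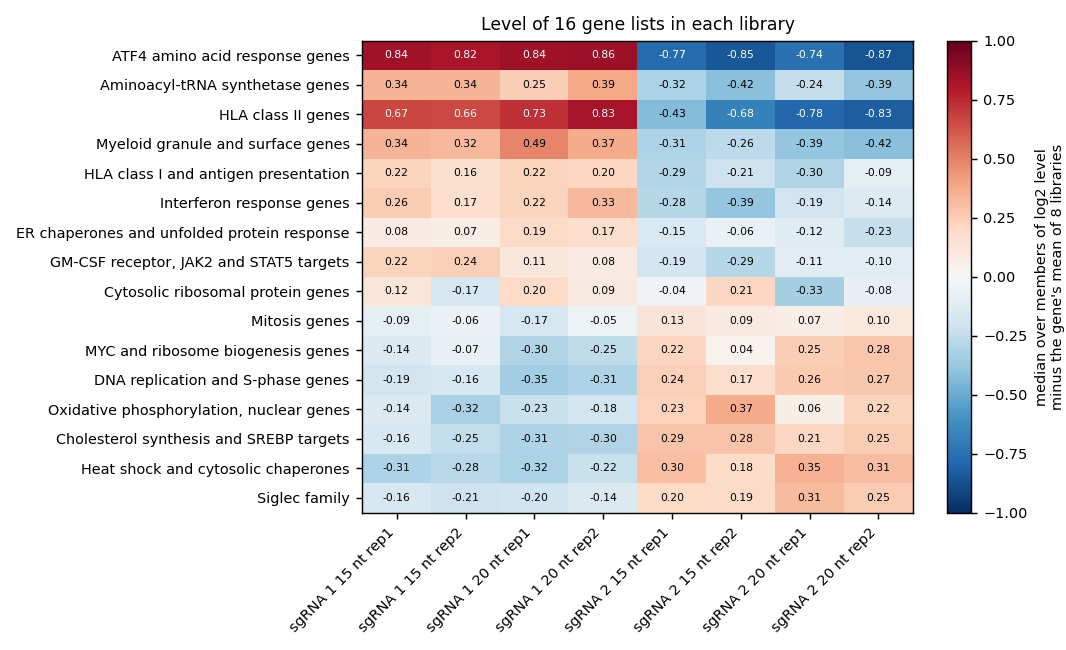
Level of 16 gene lists in each library, as the median over tested members of the log2 value minus the mean of that gene over the 8 libraries (colour and printed number). The ATF4 list lies at 0.82 to 0.86 in the sgRNA 1 libraries and at -0.87 to -0.74 in the sgRNA 2 libraries, and the ribosomal protein list shows no such split.

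Erythroid genes differed in both directions. HBD, the delta globin, stood at 301, 234, 244 and 267 with sgRNA 1 and 1135, 1488, 883 and 1210.5 with sgRNA 2 (LFC 2.15, adjusted p = 7.94e-10). The gamma globin HBG2 was lower (-0.56), HBA2 was higher (0.50), and HBB had an LFC of -0.14 (adjusted p = 0.364). HBA1 and HBA2 code for the same protein and share reads, as HBG1 and HBG2 nearly do, so their single values are uncertain. Heme synthesis enzymes were lower in 7 of 13 and higher in 3, with ALAS2, the erythroid first step, at 1347, 1246, 1210 and 1369.9 against 579.9, 597, 735 and 687 (LFC -0.997). Of 23 red cell membrane skeleton and surface genes, 11 were lower, 6 higher and 6 did not pass (median -0.16). The lower ones held the anion exchanger SLC4A1 (-1.69) and the skeleton protein ADD2 (-1.12). The transferrin receptor TFRC was higher (0.93), its relative TFR2 lower (-1.15), and transferrin itself (TF) stood at 136, 127, 117 and 116 against 6.11, 7.38, 6.20 and 10.4 (LFC -3.90).

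Of 17 lineage markers of TF-1, 15 had a mean of at least 10 over the 8 libraries and were tested. IL3RA, the IL-3 receptor alpha chain, was at 0 in all 8 libraries, and CSF2RA, the GM-CSF receptor alpha chain, lay between 0 and 1.75. Both were at 0 in the control libraries as well. The study used CSF2RA as a positive control that TF-1 growth needs, so these counts are not read as absence of the receptors. Why the counts were so low was not tested. Of the 15 tested, 11 were lower and 3 (CD33, CD34 and TFRC) higher. CD34, the progenitor antigen, stood at 2175, 2133, 1878 and 1864 against 3793, 3427, 3796 and 3289 (LFC 0.83), GATA1 had an LFC of -0.25 and PTPRC (CD45) one of -0.21. Markers of other cell types were mostly scarce. The summed level of 7 T cell markers was 15.3 to 27.7 with sgRNA 1 and 67.2 to 77.9 with sgRNA 2, and 1 of them, CD3D, was high enough to test (22.3, 11.7, 17.3 and 14.8 against 55.02, 61.1, 72.6 and 66.1). The 6 fibroblast markers summed to 16.1 to 25.2 and 52.2 to 65.2, with COL1A1 as the tested one. The 6 B cell markers summed to 143 to 217 and 223 to 285, with MS4A1 at 0 in all libraries. Most of that sum was CD79B, with means of 133 (sgRNA 1) and 180 (sgRNA 2). The 6 epithelial markers summed to 27.7 to 36.0 and 24.2 to 38.9, with KRT5 and KRT19 at 0. The part of these markers in the lists above was not tested.

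By a rule of size, the 15 genes lowest and the 15 highest with sgRNA 2 were taken among called genes with a mean of at least 50 and libraries that did not overlap. On the lower side LFCs ran from -4.54 to -3.31. PTPRVP, a phosphatase pseudogene, led with 136, 128, 169.6 and 152 against 7.86, 3.16, 4.43 and 6.96, followed by the transporter SPNS3 (-4.44). S100P, a calcium-binding protein (-4.01), COLGALT2, which glycosylates collagen (-3.94), the matrix protein FREM1 (-3.62) and MLXIPL (ChREBP), a glucose-responsive factor (-3.49), were among them. PTPN7, a MAP kinase phosphatase, stood at 1647, 1666, 1618 and 1626 with sgRNA 1 and 115, 92.8, 114 and 123 with sgRNA 2 (LFC -3.88 ± 0.079, adjusted p = 2.26e-14). Its control libraries held 1544 and 1643, on the side of sgRNA 1. The other genes of the 15 were CRACR2B, INHBE, TF, CHAC1 and the DDIT4 and VLDLR pairs.

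On the higher side LFCs ran from 1.93 to 3.46. SLA, an adaptor that dampens receptor signaling, stood at 6.24, 11.7, 4.56 and 8.91 against 102, 103, 86.8 and 78.3 (LFC 3.46 ± 0.24, adjusted p = 1.66e-08). MAP1A, a microtubule protein, stood at 124, 166, 92.1 and 79.2 against 684, 622, 801 and 795 (2.69). The sgRNA 1 libraries were low and did not overlap with the others for either gene. ID3, an inhibitor of helix-loop-helix factors, stood at 127, 121, 117 and 125 against 661, 679.9, 592 and 668 (2.40). The matrix protein THBS1 (2.39), the long non-coding RNA PCAT14 (2.38), the adaptor SH2D1B (2.31), the scaffold AKAP12 (2.15), the protocadherin PCDH17 (2.11) and the oxygen sensor EGLN3 (2.07) followed. SCARA3, GPRIN1, NDRG2, CXCL8, HBD and RPS10 completed the 15.

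Genes near predicted sites of either guide were then read. The 15-nt spacer with an NGG PAM had, within 1000 bp of a start site, 5 sites with no mismatch and 25 with 1 for sgRNA 1, and 3 and 43 for sgRNA 2. In this comparison a gene that is lower with the guide that has the site gets a positive LFC near a site of sgRNA 1 and a negative one near a site of sgRNA 2. Near the 1-mismatch sites of sgRNA 1, 6 of 15 tested genes were higher and 4 lower with sgRNA 2, with a median LFC of 0.18. Near those of sgRNA 2, 13 of 28 were lower (46.4%) and 5 higher, with a median of -0.28. Some genes share a site, so these are not counts of sites. Examples are ASH1L, MSTO1 and ASH1L-AS1 (sgRNA 2), and ZNF524 and FIZ1 (sgRNA 1). With 2 mismatches the medians were -0.045 (134 genes) and -0.0086 (245 genes), and with 3 they were 0.014 (944) and 0.00082 (1609). Lower calls made up 35.9% of the 245 genes with 2 mismatches to sgRNA 2, and 17 of them (6.94%) were lower by an LFC of at least 1 in size, against 29.8% and 4.61% of all genes. In the other 3 of these sets lower calls made up 29.9 to 31.9% and higher calls 27.6 to 29.6%. Of all tested genes 13630 (83.6%) had no site of either guide. The share was the same to within 2 percentage points among the 752 genes lower by an LFC of at least 1 in size (633, 84.2%) and the 574 higher ones (488, 85.0%).

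Sites are shown for genes chosen after their values were seen, each lower with the guide that has the site. Genes that went the other way, among them MORN2, SLC25A22 and ZNF524, are named below without their sites. Capitals are as above, and sites are read in hg38 on the strand that matches the guide. The substitution is counted from 1 at the 5′ end of the 20-nt guide (guide base, position, genomic base). Only substitutions within the 15 capital bases are listed. Against the full 20-nt guide, the site of SIGLEC14 has 1 mismatch and those of TDRD3 and LHPP have 3. Those of COX6A1 and COX6A1P2 have 4, and those of CRACR2B, ITGB4 and GRAMD1A have 5. COX6A1 (T11A, chr12:120438173-120438195, minus strand, coding exon) and its pseudogene COX6A1P2 (T11A, chr6:37044906-37044928, minus strand, non-coding exon) go with sgRNA 1, as does SIGLEC14 (C20G, chr19:51646722-51646744, minus strand, coding exon). CRACR2B (G9C, chr11:827533-827555, minus strand, intron), ITGB4 (G7A, chr17:75756043-75756065, minus strand, intron), TDRD3 (G9C, chr13:60397446-60397468, plus strand, intron), LHPP (G15T, chr10:124604348-124604370, minus strand, intron) and GRAMD1A (A17T, chr19:35014300-35014322, minus strand, coding or UTR by transcript) go with sgRNA 2.
COX6A1 site of sgRNA 1: aggccGCCCCAGCTGTGGGCggg
SIGLEC14 site of sgRNA 1: ctgctGCCCCTGCTGTGGGGggg
CRACR2B site of sgRNA 2: cagcaGGGCCCCAGGGAGGTggg
ITGB4 site of sgRNA 2: ggagaGAGGCCCAGGGAGGTggg
TDRD3 site of sgRNA 2: ggccgGGGCCCCAGGGAGGTtgg
LHPP site of sgRNA 2: ttgctGGGGCCCAGTGAGGTggg
GRAMD1A site of sgRNA 2: tccaaGGGGCCCAGGGTGGTggg

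COX6A1 stood at 372, 328, 285 and 180.2 with sgRNA 1 and 644, 584, 546 and 629.6 with sgRNA 2 (LFC 1.09 ± 0.12, adjusted p = 1.46e-06), and at 954 and 968 in the control libraries. COX6A1P2, which holds the same 20 bases and PAM, had an LFC of 1.06, and the pair share near-identical sequence, so reads may be split between them. SIGLEC14, a paired activating receptor of the CD33 family, was low, at 5.35, 9.89, 11.9 and 12.9 against 24.5, 15.8, 23.02 and 16.5 (LFC 0.97, adjusted p = 0.00952). SIGLEC22P, a pseudogene beside CD33 with a full match to sgRNA 1 and a 1-mismatch site of sgRNA 2, had an LFC of 1.21 at levels of 9.81, 8.10, 5.47 and 4.95 against 11.4, 20.03, 23.9 and 15.7. PI4KAP2, with a full 15-nt match to sgRNA 1, had an LFC of -0.18 (adjusted p = 0.131). In a list of Siglecs, which beside the CD33-related ones holds CD22, MAG and SIGLEC15, 6 of 11 tested genes were higher with sgRNA 2 and 1, CD22, lower (median 0.60). SIGLEC10 (0.81) and SIGLEC16 (0.82), for which no 0- or 1-mismatch site was found, were among the 6.

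With sgRNA 2, CRACR2B, a regulator of store-operated calcium entry, had the largest difference near such a site, and its site is 42 bp from the nearest start. It stood at 278, 322, 357 and 345 with sgRNA 1 and 26.2, 25.3, 25.7 and 21.7 with sgRNA 2 (LFC -3.66 ± 0.12, adjusted p = 4.24e-12), and at 257 and 273 in the control libraries. All sgRNA 1 libraries lay above both control libraries, and all sgRNA 2 libraries lay far below them. ITGB4, the beta 4 integrin, stood at 1247, 1424, 1216 and 1193 against 179.9, 189, 227 and 226 (LFC -2.63, adjusted p = 4.39e-13), with 124 and 130.4 in the control libraries, below both guides. TDRD3, a methylarginine reader (339, 323, 324 and 348 against 161, 135, 172 and 154, LFC -1.10), had control libraries at 109.6 and 100.2. GRAMD1A, a sterol transporter (-1.16), LHPP, a phosphatase (-1.04), BEND6 (-0.84) and RNF44 (-0.71) were lower with sgRNA 2, and SLC25A22 (0.73) and MORN2 (0.94) were higher. For sgRNA 1, the unnamed transcript AL158151.1 (1.64) was higher with sgRNA 2 and ZNF524 (-0.85) was lower.

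The difference between the guides was also read at each length. The LFC of the 15-nt guides and that of the 20-nt guides, which share no library, had a Spearman correlation of 0.73 across the 16309 genes, given as a description. The interaction of guide and length passed in 13 genes (0.0797% of those tested). An unadjusted p under 0.05 was reached by 3931 of the 16309, a larger share than 0.05. In simulated data this test recovered 24% of 1.5-fold and 65% of 2-fold differences between lengths, so smaller ones were mostly beyond it there. The simulated libraries were drawn independently, with no shift common to a library, so these shares may not carry over to the real libraries. TNFAIP2, an inducible gene of NF-kB signaling, stood at 791, 784, 728 and 725 with sgRNA 1 and 300.4, 264, 726 and 733 with sgRNA 2, so the 15-nt guides differed and the 20-nt ones overlapped. Its LFC was -1.48 at 15 nt and 0.0067 at 20 nt (interaction -1.49 ± 0.13, adjusted p = 0.000219). CLK1, a splicing kinase, had LFCs of 0.31 and -0.73 (interaction 1.05, adjusted p = 0.00268). The calls of this test changed widely with the setting, from 0 to 2328 genes, and in particular from 13 to 2328 when 1 of the 15-nt sgRNA 2 libraries, replicate 1, was left out, and to 1382 without 15-nt sgRNA 1 replicate 1.

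**Figure D3:**
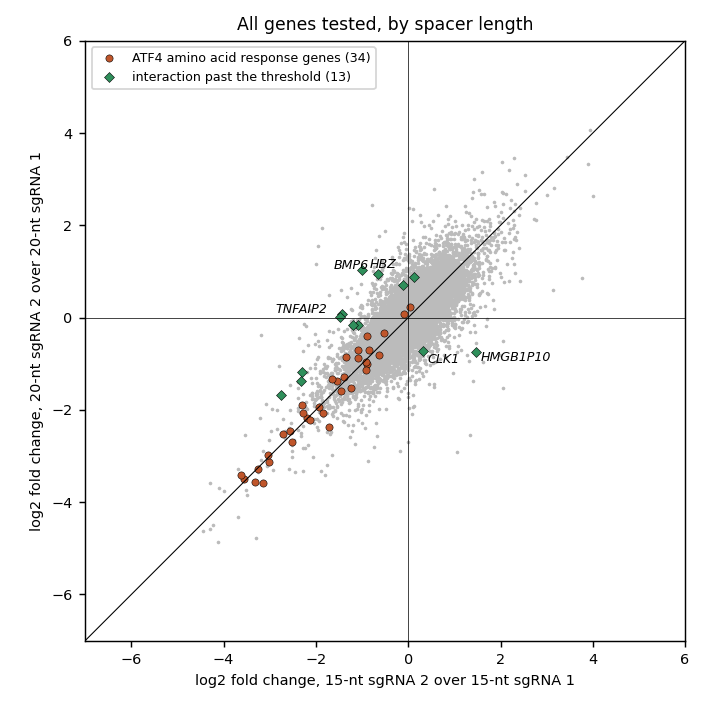
LFC of sgRNA 2 over sgRNA 1 between the 15-nt guides (horizontal) and between the 20-nt guides (vertical), both log2, for all 16309 genes tested. Of the 34 ATF4 genes (circles), the 32 that were lower with sgRNA 2 lie along the diagonal at the lower left and ALDH18A1 and ATF5 lie near 0, and the 13 genes past the threshold of the interaction (diamonds) lie off it.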

How the data were processed

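RNA-seq of TF-1 cells was analysed from the table the authors deposited, whose values are read counts divided by size factors (unit: signal). The submitters' processing notes name HISAT2 and hg38; the column headers name htseq-count. Versions and the strand setting of counting were found in no source used here. The values of a library were multiples of 1 step, and dividing by it gave whole numbers (within 0.01) for 100% of values, 16460344 to 19616765 reads a library; for sgRNA 1 20-nt replicate 2 the step was too near 1 for this to be checked. On these whole reads edgeR called 9671 genes and DESeq2 8504. In the table, 1 column of per-sample values matched no sample and was not used.

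Genes with a mean of at least 10 over the 8 libraries were tested on log2(value + 1) with limma 3.58.1 (lmFit, eBayes with trend, R 4.3.3). The model had 1 mean for each guide and length. The contrast was the mean of the sgRNA 2 groups minus that of the sgRNA 1 groups, with Benjamini-Hochberg adjustment over all genes tested and a threshold of 0.05. The interaction was the 15-nt contrast minus the 20-nt one. An LFC is on the log2(value + 1) scale and understates changes of low genes. edgeR 4.0.16 and DESeq2 1.42.0 on whole reads, other scalings, filters, pseudocounts and models, a replicate block and each library left out were tried as alternatives. Replicate numbers were not taken as pairs: same-numbered libraries share only the number, and their deviations correlated at -0.095 to 0.11.

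The groups, the 45 gene lists and the tests were chosen with earlier results of these data known. Genes named by rule were CD33, ZIM3, SIGLEC6 (below the filter), SIGLEC14, COX6A1 and EGR1, the 15 lowest and 15 highest of those with a mean of at least 50 and libraries apart, the 4 largest called differences of each list, genes at predicted sites with 0 or 1 mismatch, and the 5 highest and 5 lowest called interactions. Further genes were named after their values were seen. Sites were matched in hg38 with GENCODE v44, with up to 3 mismatches to the 15 bases next to an NGG within 1000 bp of a start site. Tested on simulated data for the guide comparison, limma recovered 69% of 100 genes changed 1.5-fold and 94% of 100 changed 2-fold. It called 13 of 15984 unchanged genes (16182 genes in the step). The simulated libraries were drawn independently, with no shift common to a library.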

Additional observations from a re-analysis of the deposited data

Results flagged for a closer look

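The test of whether the difference between the guides itself differed between the lengths (15 nt minus 20 nt, interaction term in limma) passed in 13 genes. HBZ is the embryonic zeta globin, and its interaction was -2.02 (adjusted p = 0.0216), from an LFC of -0.99 at 15 nt and 1.03 at 20 nt. BMP6, a ligand that controls iron, had -1.61 (adjusted p = 0.00268, -0.66 and 0.95). MOCS1, of molybdenum cofactor synthesis, had -1.52 (adjusted p = 0.00393, -1.43 and 0.082). TNFAIP2 had -1.49 (adjusted p = 0.000219), the calcium pump ATP2A3 -1.12 (adjusted p = 0.00179, -2.29 and -1.17), and the splicing kinase CLK1 1.05 (adjusted p = 0.00268). HMGB1P10, a pseudogene whose reads may be shared with HMGB1, had 2.22 (adjusted p = 0.0447, 1.47 and -0.74). The other interactions were -1.07 (PTER), -1.03 (TRIM38, a ubiquitin ligase), -0.96 (SLC6A19, an amino acid transporter), -0.93 (OSBP2), -0.82 (TCOF1, of ribosome biogenesis) and -0.75 (HBA2, which shares reads with HBA1), with adjusted p from 0.00268 to 0.0447. Under 19 alternatives TNFAIP2 passed in 18 and HMGB1P10, OSBP2 and TCOF1 in 9 each. Each arm of this test holds 2 libraries, and how its calls depend on single libraries is given with the alternatives.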

How the results depend on the processing

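In the comparison of the guides, between 6637 (15-nt libraries alone) and 9692 genes were called under the alternatives against 9669, and 8732 to 9318 with 1 library left out. Of the called genes, 1 changed sign, with the 15-nt libraries alone. These alone gave 3173 higher calls against 4812. Past an LFC of 1 in size there were 937 higher genes without a filter, and 468 lower and 279 higher with a mean of at least 50. With the replicate block 9510 genes were called, 9419 of them shared, and 62 interactions. Interaction calls (13) numbered 1 without a filter, 0 without the trend, 7 with upper-quartile scaling, 7 with edgeR, 659 with DESeq2 and 162 in the 10-library fit. With 1 library left out they ran from 6 to 2328 (2328 without sgRNA 2 15 nt replicate 1, 1382 without sgRNA 1 15 nt replicate 1), and the cause was not tested. Of 203 named genes recomputed, 174 passed and 198 kept their direction under every setting that tested them. With a mean of at least 50, 179 of the 203 were tested. A missing adjusted p was counted as unchanged. CLK1 turned with the 15-nt libraries alone (0.31), as did HBA1 (-0.029), and with the 20-nt libraries alone FURIN (0.028), MOCS1 (0.082) and TNFAIP2 (0.0067) turned. The ATF4 counts stayed within 1.5 times under all alternatives. With 2 libraries a group, length-specific differences are the least precise.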

Other observations

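Some gene groups outside the accounts above also differed between the guides. Among 17 targets of Wnt, Notch and TGF-beta signaling, 10 were higher with sgRNA 2 and 4 lower, with a median LFC of 0.60. The 3 highest were ID3 (2.40), the decoy receptor BAMBI (1.59) and the inhibitor SMAD6 (1.47), whereas HES1, a Notch target, was lower (-1.45). Of 19 cytoskeleton and SRF target genes, 12 were higher and 4 lower (median 0.36). ACTB, the beta actin, stood at 29807, 31767, 26091 and 27221 with sgRNA 1 and 56782, 52345, 63149 and 61396 with sgRNA 2 (LFC 1.02, adjusted p = 5.08e-08), and the tropomyosin TPM2 was lower (-0.96). Adhesion and migration receptors had 11 of 19 lower and 5 higher, with the integrin chain ITGB1 at -0.78.

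Lineage genes near the erythroid ones split. The platelet genes GP9 (-0.98), TUBB1 (-0.93) and ITGA2B (-0.88) were lower with sgRNA 2, and SELP (1.41) and PLEK (1.21) higher. Of 13 mast cell and basophil genes, 6 were higher and 3 lower, with the IL-33 receptor IL1RL1 at 1.46, the histamine-forming enzyme HDC at 1.02 and the tryptase TPSAB1 at -1.21. Lysosome and autophagy genes had 15 of 28 lower and 7 higher, with GPNMB at 1.05. All LFCs here are of sgRNA 2 over sgRNA 1 on the log2(value + 1) scale from limma, and every gene named passed an adjusted p of 0.05.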
